A study of Mus musculus with 10 samples.

Results

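The 10 genes described here are feedback inhibitors and target genes of the FGF and ERK pathway: the Sprouty and Spred inhibitors *Spry1*, *Spry2*, *Spry4*, *Spred1* and *Spred2*, the dual-specificity phosphatases *Dusp4* and *Dusp6*, the ETS factors *Etv4* and *Etv5*, and *Egr1*. They were chosen by name, 10 of 21951 protein-coding genes of GENCODE M21, and all 10 were among the 11632 genes with a promoter peak in at least 1 library. H3K4me3, a histone mark found at the promoters of transcribed genes, was mapped by CUT&Tag, where Tn5 transposase is brought to the mark by an antibody and inserts sequencing adapters nearby. The cells were naive extra-embryonic endoderm (nEnd), a mouse culture model of the early primitive endoderm, all from the OCT4-mCherry reporter cell line, untreated, and grown on mouse embryonic fibroblast feeders in medium with Activin A, CHIR99021 and LIF. They were sorted on the reporter and on an antibody to surface PDGFRA into 4 libraries of Oct4+ nEnd (reporter only), 3 of DP nEnd (both markers) and 3 of Pdgfra+ nEnd (PDGFRA only). All libraries come from 1 reporter line, each holds a sorted pool of cells, and the study describes its replicates as biological. The labels do not say whether they came from separate cultures or sorts, so p-values measure the spread between these libraries, which may be technical.

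Fibroblast growth factors act through receptor tyrosine kinases, RAS and RAF to the kinase ERK, and in the mouse blastocyst this pathway directs inner cell mass cells towards primitive endoderm. ERK activity induces its own brakes: Sprouty and Spred proteins act on the steps from the receptor to RAF, while DUSP phosphatases remove phosphate from ERK itself. ETV4, ETV5 and EGR1 are transcription factors whose genes respond to ERK signalling, and *Spry4*, *Dusp6*, *Etv4* and *Etv5* are widely used as readouts of FGF activity. The genes were compared between the populations to ask whether their promoter marking followed the sort.

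A promoter was taken as the stretch between 1000 bp before and 100 bp after any annotated TSS of a gene, and the gene as marked if a peak shared at least 1 bp with it. Because coverage was not scaled between libraries, each promoter peak was ranked within its own library, and its percentile is the share of that library's peaks with the same or a lower total signal (the coverage summed over the peak). A gene with no promoter peak has percentile 0. The 10 libraries held 3477 to 10545 peaks, with the fewest in Oct4+ nEnd replicate 3, and marked 4021 to 11138 genes. The median highest coverage of a peak was 22 to 59 across the Oct4+ libraries, 107 to 144 across the DP libraries and 67 to 143 across the Pdgfra+ libraries, and the median peak width was 2204.5 bp in Pdgfra+ nEnd replicate 2 and 3032.5 to 4222.5 bp elsewhere. Reads per library are unknown. Oct4+ nEnd replicate 3, with the fewest peaks, and Pdgfra+ nEnd replicate 2, with the narrowest, stood apart. The counts of genes apart by total signal are given with and without each of them, and those by width also without Pdgfra+ replicate 2. Counts by highest coverage and by its position are given for all libraries only. The promoters of *Pou5f1*, *Nanog*, *Sox2* and *Esrrb* were marked in every Oct4+ and DP library and in no Pdgfra+ library, and those of *Pdgfra*, *Gata6*, *Sox17* and *Foxa2* in every DP and Pdgfra+ library. In Oct4+ nEnd these endoderm promoters were marked in 1, 3, 2 and 0 of 4 libraries and reached at most the percentile 41.0. Of 12 feeder fibroblast markers, 11 were marked in no library, and *Twist1* reached at most the percentile 13.0. In sorted pools, fewer cells with the mark and less mark per cell cannot be told apart.

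All 10 genes had a promoter peak in each of the 4 Oct4+ and the 3 DP libraries, while Pdgfra+ replicates 1, 2 and 3 marked 10, 6 and 8 of them. This made 94 of 100 combinations of gene and library. *Spry4* and *Etv4* lacked a peak in Pdgfra+ replicates 2 and 3, and *Spry1* and *Etv5* lacked one in replicate 2. Of the 11632 genes tested, 34.1% were marked in every Oct4+ library, 72.8% in every DP library and 62.6% in every Pdgfra+ library, and 31.1% were marked in all 10 libraries, as 6 of the members were. Between Oct4+ and Pdgfra+ nEnd, Fisher's exact test of presence gave a two-sided p = 0.143 for *Spry4* and for *Etv4*, each marked in 4 of 4 against 1 of 3 libraries. With so few libraries only 4 of 4 against 0 of 3 (or the reverse) could reach 0.0286, so this test says little about presence. In the consensus peak lists, which give positions only and which for Oct4+ nEnd leave out replicate 3, all 10 genes had a promoter peak in Oct4+ and DP nEnd, and 8 had one in Pdgfra+ nEnd, where *Spry4* and *Etv4* had none.

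In rank, 8 of the 10 genes were higher in every DP than in every Pdgfra+ library, and only *Egr1* was lower in every library, with *Etv5* overlapping. Over all genes tested these shares were 2.68% and 4.64%. Oct4+ nEnd lay above Pdgfra+ nEnd for 5 genes (*Spry2*, *Spry4*, *Spred2*, *Dusp6* and *Etv5*; 4.62% of all genes) and below it for *Egr1* alone (18.8% of all genes). Against DP nEnd it lay above for *Spry4*, *Dusp6* and *Etv5* (4.21% of all genes) and below for *Egr1* (23.3% of all genes). For *Etv5* the Oct4+ values are those of a domain inside the gene, described with that gene. With coding TSS only, its Oct4+ libraries overlapped both other populations, leaving 3 genes apart from DP nEnd (*Spry4* and *Dusp6* above, beside 4.16% of all genes) and 5 from Pdgfra+ nEnd (4 of them above, beside 4.61%). The median of the genes' mean percentiles was 91.6 in Oct4+ nEnd, 85.1 in the DP and 66.4 in the Pdgfra+ libraries, where the median over all genes tested was 22.6, 41.3 and 39.0. With coding TSS only, the Oct4+ median was 83.3 and lay below the unchanged 85.1 of DP nEnd, so the order of these medians between Oct4+ and DP nEnd depends on the domain inside *Etv5*. Without Oct4+ replicate 3, *Spry1* joined the genes above DP nEnd (8.5% of all genes), and *Spry1*, *Dusp4* and *Etv4* joined those above Pdgfra+ nEnd (8.26%). The same 3 genes joined them without Pdgfra+ replicate 1 (7.74%), where *Etv5* also joined the genes higher in DP than in Pdgfra+ nEnd, but beside 23.1% of all genes. Without Pdgfra+ replicate 2, the genes apart from Pdgfra+ nEnd were the same ones in the same direction, while the share of all genes below Pdgfra+ nEnd, where *Egr1* lay, rose to 30.4% for Oct4+ and 14.8% for DP nEnd. No gene of the 11632 passed an adjusted p of 0.05 in any pair (exact two-sided permutation test, Benjamini-Hochberg adjustment). The smallest p that 4 against 3 libraries allow is 0.0286, which 1320 genes reached between Oct4+ and DP nEnd and 1387 between Oct4+ and Pdgfra+ nEnd, while 3 against 3 libraries allow no p under 0.1.

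**Figure D1:**
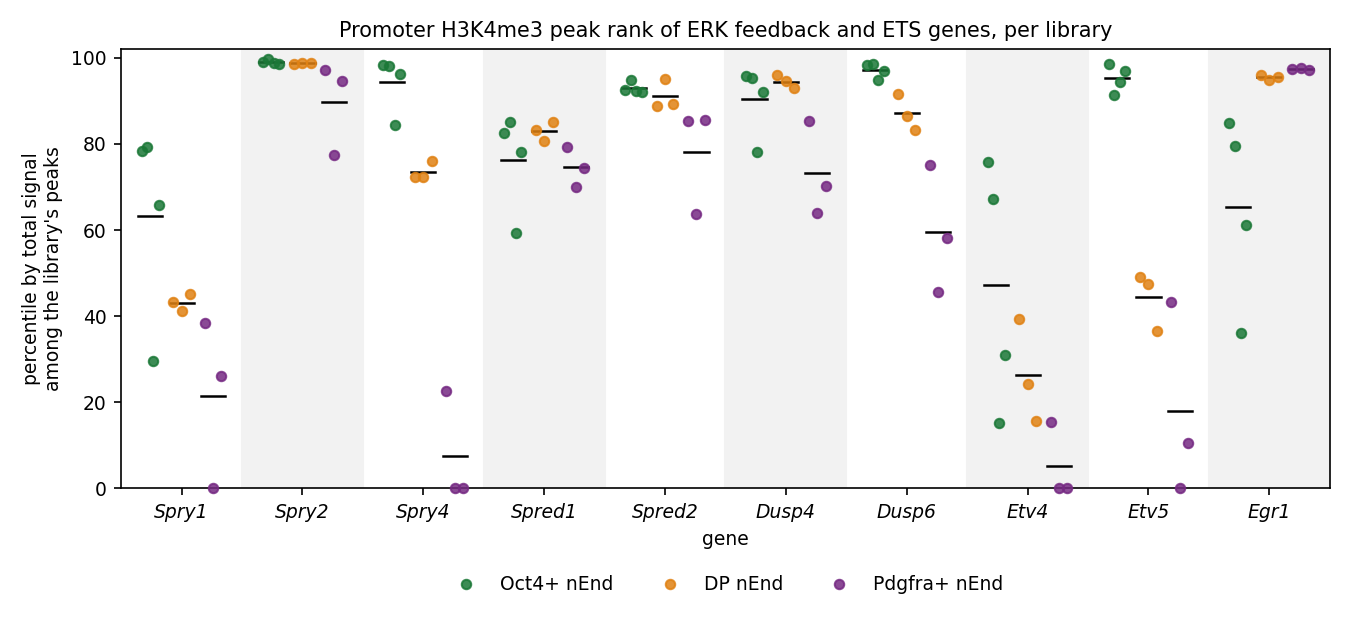
Percentile of the H3K4me3 peak with the highest total signal at any annotated TSS among the peaks of its library (vertical axis, 0 where no peak was called) for the 10 genes, with 1 point per library and a black bar at the mean of each population. *Spry4* was at 84.4 or higher and *Etv5* at 91.4 or higher in the Oct4+ libraries, both at 43.2 or lower in the Pdgfra+ libraries, where the Oct4+ points of *Etv5* are the domain inside the gene and not its 5′ promoter peak. *Egr1* was the 1 gene whose Oct4+ libraries all lay below the others.

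**Figure D2:**
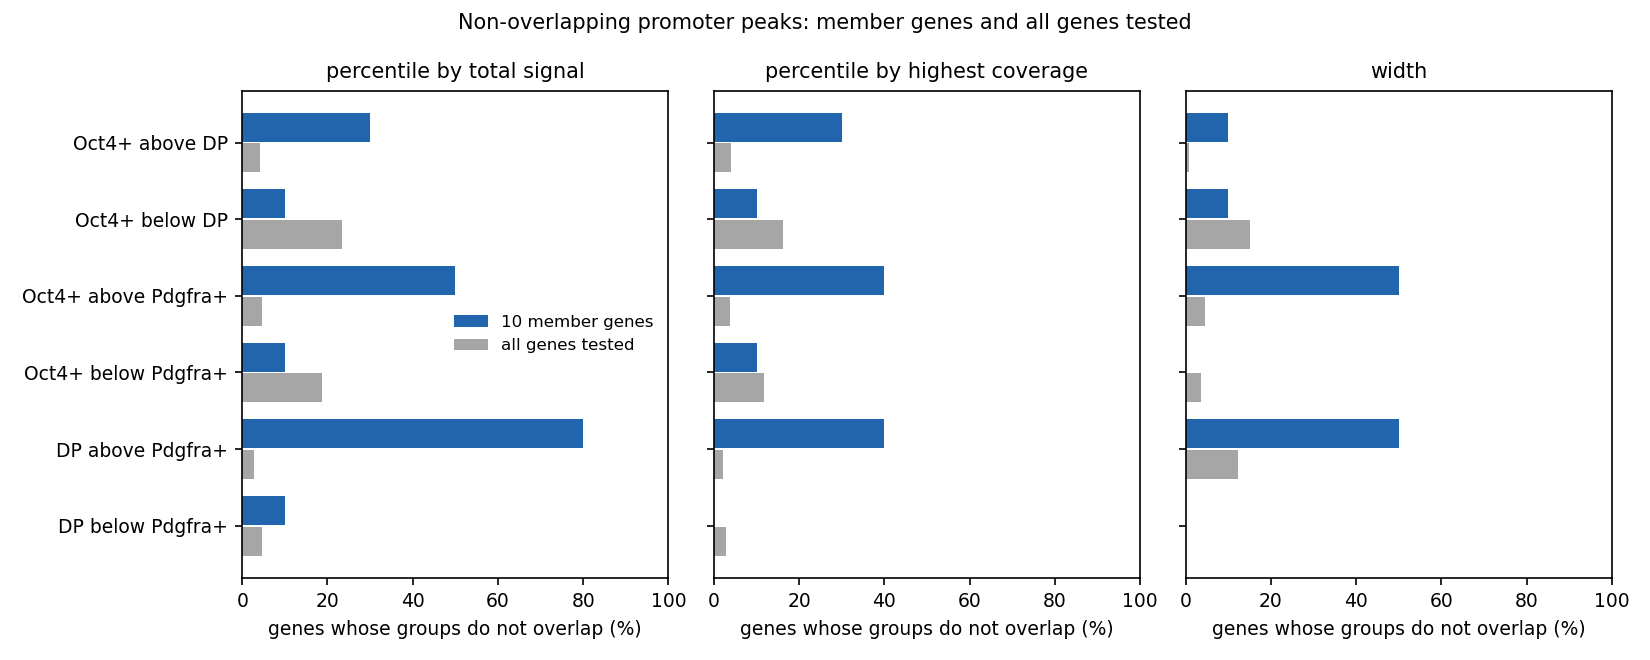
Share of genes whose libraries do not overlap between 2 populations, for the 10 genes (blue bars) and for the 11632 genes tested (grey bars), by percentile of total signal, percentile of highest coverage and peak width. The largest blue bar is DP above Pdgfra+ by total signal, 8 of 10 genes beside 2.68% of all genes.

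Among the Sprouty genes, whose products block signalling between the receptor and RAF, *Spry4* differed most between the populations. Its percentile was 98.4, 98.2, 84.4 and 96.4 in the 4 Oct4+ libraries, 72.3, 72.2 and 75.9 in the DP libraries, and 22.7 in Pdgfra+ replicate 1, with no peak in replicates 2 and 3. The 3 populations did not overlap in any pair, in the order Oct4+, DP, Pdgfra+. Means were 94.3 ± 6.67 (SD, n = 4), 73.5 ± 2.13 (SD, n = 3) and 7.55 ± 13.1 (SD, n = 3). The exact two-sided permutation test gave p = 0.0571 for Oct4+ against DP nEnd (adjusted 0.289), p = 0.0286 for Oct4+ against Pdgfra+ nEnd (adjusted 0.24) and p = 0.1 for DP against Pdgfra+ nEnd (adjusted 1).

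The *Spry4* peak was also among the broad ones of its library outside Pdgfra+ nEnd. It spanned 15799, 10693, 6199 and 16981 bp in Oct4+ nEnd, 10547, 10825 and 8467 bp in DP nEnd, and 4091 bp in the 1 Pdgfra+ library that had it. Its width ranked at the percentile 92.6 to 99.4 among the peaks of each Oct4+ library and at 98.0 to 98.7 in DP nEnd, against 59.1 in Pdgfra+ replicate 1. The peak covered 51.7% to 87.6% of the gene in Oct4+ replicates 1, 2 and 4, 16.4% in replicate 3, 39.8% to 55.4% in DP nEnd and 15.7% in Pdgfra+ replicate 1. It began upstream of the TSS and reached into the gene, and in each of the 8 libraries that had it the same peak overlapped the promoter of the lincRNA AC133601.1.

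*Spry2* held one of the strongest peaks of its library in Oct4+ and DP nEnd. Its percentile was 99.1, 99.7, 98.8 and 98.7 in Oct4+ nEnd, 98.6, 98.9 and 98.8 in the DP libraries, and 97.1, 77.5 and 94.6 in the Pdgfra+ libraries. Both the Oct4+ and the DP libraries lay above all 3 Pdgfra+ libraries, by 9.32 and 9.03 percentile points in the mean, or by 3.21 and 2.93 without Pdgfra+ replicate 2, while Oct4+ and DP nEnd overlapped (exact permutation p = 0.4). *Spry1* ranked lower and varied more between Oct4+ libraries, at 78.2, 79.3, 29.7 and 65.9, with 43.3, 41.1 and 45.1 in DP nEnd and 38.3, 0 and 26.2 in Pdgfra+ nEnd. Its DP libraries lay above its Pdgfra+ libraries. The Oct4+ libraries overlapped both, through replicate 3, and without that replicate they lay above both.

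The Spred inhibitors hold back activation of RAF. *Spred1* stood at 82.6, 85.0, 59.4 and 78.0 in Oct4+ nEnd, 83.3, 80.6 and 85.2 in the DP libraries, and 79.4, 70.1 and 74.5 in the Pdgfra+ libraries, with only DP and Pdgfra+ nEnd apart. *Spred2* stood at 92.4, 94.8, 92.4 and 92.0 in Oct4+ nEnd, 88.9, 95.0 and 89.4 in the DP libraries, and 85.3, 63.7 and 85.6 in the Pdgfra+ libraries. Its Pdgfra+ libraries lay below both other populations. The *Spred2* gene, at chr11:19924375-20024026, also carried a broad, low peak 57666 to 66611 bp downstream of its TSS in Oct4+ replicates 1, 2 and 4, of 8815, 7471 and 8013 bp. No other library had a peak inside this gene away from its promoter, and this peak was singled out after its values were seen. Its total signal was 74476, 36455 and 27220. No DP library had a called peak with a total under 50231, and no Pdgfra+ library one under 25245. Whether these lowest values account for the missing calls was not tested.

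The phosphatase gene *Dusp6*, whose product inactivates ERK, ranked highest in Oct4+ and lowest in Pdgfra+ nEnd, without overlap in any pair. Its percentile was 98.4, 98.5, 94.9 and 96.9 in Oct4+ nEnd, 91.5, 86.5 and 83.3 in the DP libraries, and 75.0, 45.5 and 58.2 in the Pdgfra+ libraries. The exact two-sided permutation test gave p = 0.0286 for Oct4+ against DP nEnd (adjusted 0.252) and for Oct4+ against Pdgfra+ nEnd (adjusted 0.24), and p = 0.1 for DP against Pdgfra+ nEnd (adjusted 1). Its peak covered 92.0% to 100% of the gene, at chr10:99263231-99267489 on the plus strand, in the Oct4+ libraries, 79.5% to 81.1% in the DP libraries and 37.0% to 72.7% in the Pdgfra+ libraries. In the 4 Oct4+ libraries, and in no other, the peak overlapped the promoter window of the lincRNA Gm48089, and it ran past the end of *Dusp6* in replicates 1, 3 and 4.

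The position of highest coverage in the *Dusp6* peak was at 49, 474, 49 and 49 bp from the TSS in the Oct4+ libraries and at 46, 49 and 480 bp in the DP libraries, but at -1202, -1338 and -1200 bp, upstream of the TSS, in the 3 Pdgfra+ libraries. Of the 6 members marked in every library, *Dusp6* was the 1 whose position of highest coverage lay further downstream in every Oct4+ than in every Pdgfra+ library (6.14% of the 3616 genes so tested), by 1402 bp in the mean (exact permutation p = 0.0286, adjusted 0.601). Between DP and Pdgfra+ nEnd *Dusp6* and *Egr1* were so separated (5.98% of 7174 genes), by 1438 bp for *Dusp6* and 56.2 bp for *Egr1* in the mean. The *Egr1* positions were 949 to 997.5 bp in DP and 859 to 948 bp in Pdgfra+ nEnd, so its groups were barely apart. The comparison of positions was added after these values were seen. The 2 stretches are shown because the highest coverage lay downstream of the first in Oct4+ and DP nEnd, within the second in Pdgfra+ replicates 1 and 3 and just upstream of the second in replicate 2: the bases before the *Dusp6* TSS (GRCm38.p6 chr10:99262981-99263230, from the RefSeq promoter table) and the bases around the position in Pdgfra+ replicates 1 and 3 (chr10:99261929-99262128, from the genome), both on the plus strand, 5′ to 3′, with CpG dinucleotides in capitals.
Dusp6 promoter: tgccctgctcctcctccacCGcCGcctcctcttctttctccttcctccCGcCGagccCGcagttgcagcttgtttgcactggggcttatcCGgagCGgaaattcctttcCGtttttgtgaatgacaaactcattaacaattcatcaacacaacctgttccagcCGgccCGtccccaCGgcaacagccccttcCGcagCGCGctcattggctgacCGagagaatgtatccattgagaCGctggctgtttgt
Dusp6 upstream site: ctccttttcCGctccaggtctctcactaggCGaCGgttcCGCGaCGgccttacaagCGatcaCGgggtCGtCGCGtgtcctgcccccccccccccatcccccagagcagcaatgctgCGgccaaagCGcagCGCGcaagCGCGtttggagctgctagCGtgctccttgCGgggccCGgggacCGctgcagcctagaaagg
Both stretches were rich in CpG, the dinucleotide that is dense at many promoters with H3K4me3. The first held 16 CpG in 250 bases, an observed over expected ratio of 0.864, and the second held 21 in 200 bases, a ratio of 0.921. The median ratio over the 32851 promoters of the table, each taken over the 250 bases before the TSS, was 0.373.

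*Dusp4*, which encodes a nuclear phosphatase of ERK, stood at 95.9, 95.3, 78.0 and 92.2 in Oct4+ nEnd, 95.9, 94.5 and 93.0 in the DP libraries, and 85.4, 64.0 and 70.1 in the Pdgfra+ libraries. The DP libraries lay above the Pdgfra+ libraries by 21.3 percentile points in the mean (exact permutation p = 0.1, adjusted 1). Oct4+ replicate 3 overlapped the Pdgfra+ libraries, and the other 3 Oct4+ libraries lay above all of them.

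*Etv5*, an ETS activator whose gene responds to FGF, had the second widest range of population means, and the rank depended on which of its peaks was read. By the peak with the highest total signal at any annotated TSS, it stood at 98.5, 91.4, 94.4 and 97.0 in Oct4+ nEnd, 49.1, 47.5 and 36.5 in the DP libraries, and 43.2, 0 and 10.5 in the Pdgfra+ libraries. The Oct4+ libraries lay above both other populations (exact permutation p = 0.0286 for each, adjusted 0.252 and 0.24). In all 4 Oct4+ libraries that peak was not at the 5′ end of the gene, which lies at chr16:22381309-22439719 on the minus strand, but began 24979 to 26388 bp downstream of the first TSS and spanned 17709, 11256, 12940 and 16057 bp. It was counted because it touches the start of a short transcript annotated inside the gene.

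This intragenic domain was wide and low. In the Oct4+ libraries its width ranked at the percentile 99.2 to 99.7 and its highest coverage at 20.9 to 40.5. A domain over the same place was called in 4 of 4 Oct4+ libraries, in DP replicate 2 (12334 bp, percentile 8.50 by total signal) and in 0 of 3 Pdgfra+ libraries, a feature singled out after its values were seen. In DP replicate 2 its total signal was 66077, and the lowest of any called peak was 53198. In Oct4+ replicate 3 these values were 65111 and 15732. Whether the lowest called signal of a library accounts for the missing calls was not tested. In Oct4+ replicates 1 and 2 the position of highest coverage was in exon 7 of the 13 exons of the longest coding transcript, at chr16:22411633-22411920, within the coding sequence, and in the other 3 libraries with the domain it was in an intron. Across the members this was the 1 gene whose position of highest coverage lay further downstream in every Oct4+ than in every DP library (5.13% of 3882 genes). That separation sets the domain in Oct4+ nEnd against the 5′ peak in DP nEnd, so it follows from the choice of peak. In the 5′ peak the positions were 78, 622, 338 and 274 bp in the Oct4+ and 274, 327 and 216 bp in the DP libraries, which overlap. At the 5′ promoter of *Etv5*, the peak read when only the TSS of coding transcripts were used, the percentile was 75.2, 75.3, 38.6 and 91.3 in Oct4+ nEnd, 49.1, 47.5 and 36.5 in the DP libraries, and 43.2, 0 and 10.5 in the Pdgfra+ libraries. There Oct4+ nEnd overlapped both other populations through replicate 3 (exact permutation p = 0.114 against DP and 0.0857 against Pdgfra+ nEnd), so by total signal the separation of *Etv5* rests on the domain inside the gene. The 5′ peak spanned 4617, 5598 and 3967 bp in Oct4+ replicates 1, 2 and 3 but 16684 bp in replicate 4. In replicate 4 it reached 13634 bp into the gene, where replicates 1 and 2 had separate peaks at 7367 to 13940 and 7160 to 11992 bp. By highest coverage the same 5′ peak ranked at 81.8, 69.6, 40.3 and 85.7 in the Oct4+ libraries, above its 25.9, 39.2 and 25.5 in the DP libraries and its 35.1, 0 and 4.04 in the Pdgfra+ libraries. These groups did not overlap, with 40.3 the lowest Oct4+ and 39.2 the highest DP value, and this measure of the 5′ peak, looked at after its values were seen, was not tested.

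The 2 *Etv5* sites are shown on the minus strand, 5′ to 3′, with CpG in capitals, to set the promoter beside the exonic site: the bases of the RefSeq promoter window that precede the first annotated TSS (GRCm38.p6 chr16:22439720-22439820) and the bases around the position of highest coverage in Oct4+ replicate 1 (chr16:22411664-22411863).
Etv5 promoter: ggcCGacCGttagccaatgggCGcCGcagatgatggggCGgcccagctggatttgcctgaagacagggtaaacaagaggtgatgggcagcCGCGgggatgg
Etv5 exonic site: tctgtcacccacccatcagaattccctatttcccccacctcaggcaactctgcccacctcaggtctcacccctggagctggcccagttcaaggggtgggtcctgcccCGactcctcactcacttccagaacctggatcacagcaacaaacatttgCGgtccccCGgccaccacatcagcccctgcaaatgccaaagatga
The promoter stretch held 7 CpG in 101 bases, a ratio of observed to expected of 0.732, and the exonic site held 3 in 200 bases, a ratio of 0.206, below the median of 0.373 over all promoters.

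*Etv4*, a close relative of *Etv5*, had the lowest ranks of the 10 genes. Its percentile was 75.8, 67.2, 15.2 and 31.0 in Oct4+ nEnd, 39.4, 24.1 and 15.5 in DP nEnd, and 15.3 in Pdgfra+ replicate 1, with no peak in replicates 2 and 3. Only DP and Pdgfra+ nEnd were apart, and the lowest DP value, 15.5, was close to the highest Pdgfra+ value, 15.3. Oct4+ replicates 1 and 2 stood well above replicates 3 and 4, so the spread within Oct4+ nEnd, 28.9 (SD, n = 4), exceeded its difference of 20.97 from DP nEnd.

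The immediate-early gene *Egr1* was the 1 member whose Oct4+ libraries lay below those of both other populations without overlap. Its percentile was 84.9, 79.6, 36.0 and 61.1 in Oct4+ nEnd, 96.0, 94.9 and 95.5 in the DP libraries, and 97.4, 97.6 and 97.2 in the Pdgfra+ libraries. The populations did not overlap in any pair, in the order Pdgfra+, DP, Oct4+, but the mean difference was -1.95 percentile points for DP minus Pdgfra+ nEnd and -30.04 for Oct4+ minus DP nEnd (exact permutation p = 0.0857, adjusted 0.326). A lower rank in Oct4+ than in DP nEnd was common, at 23.3% of all genes tested.

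**Figure D3:**
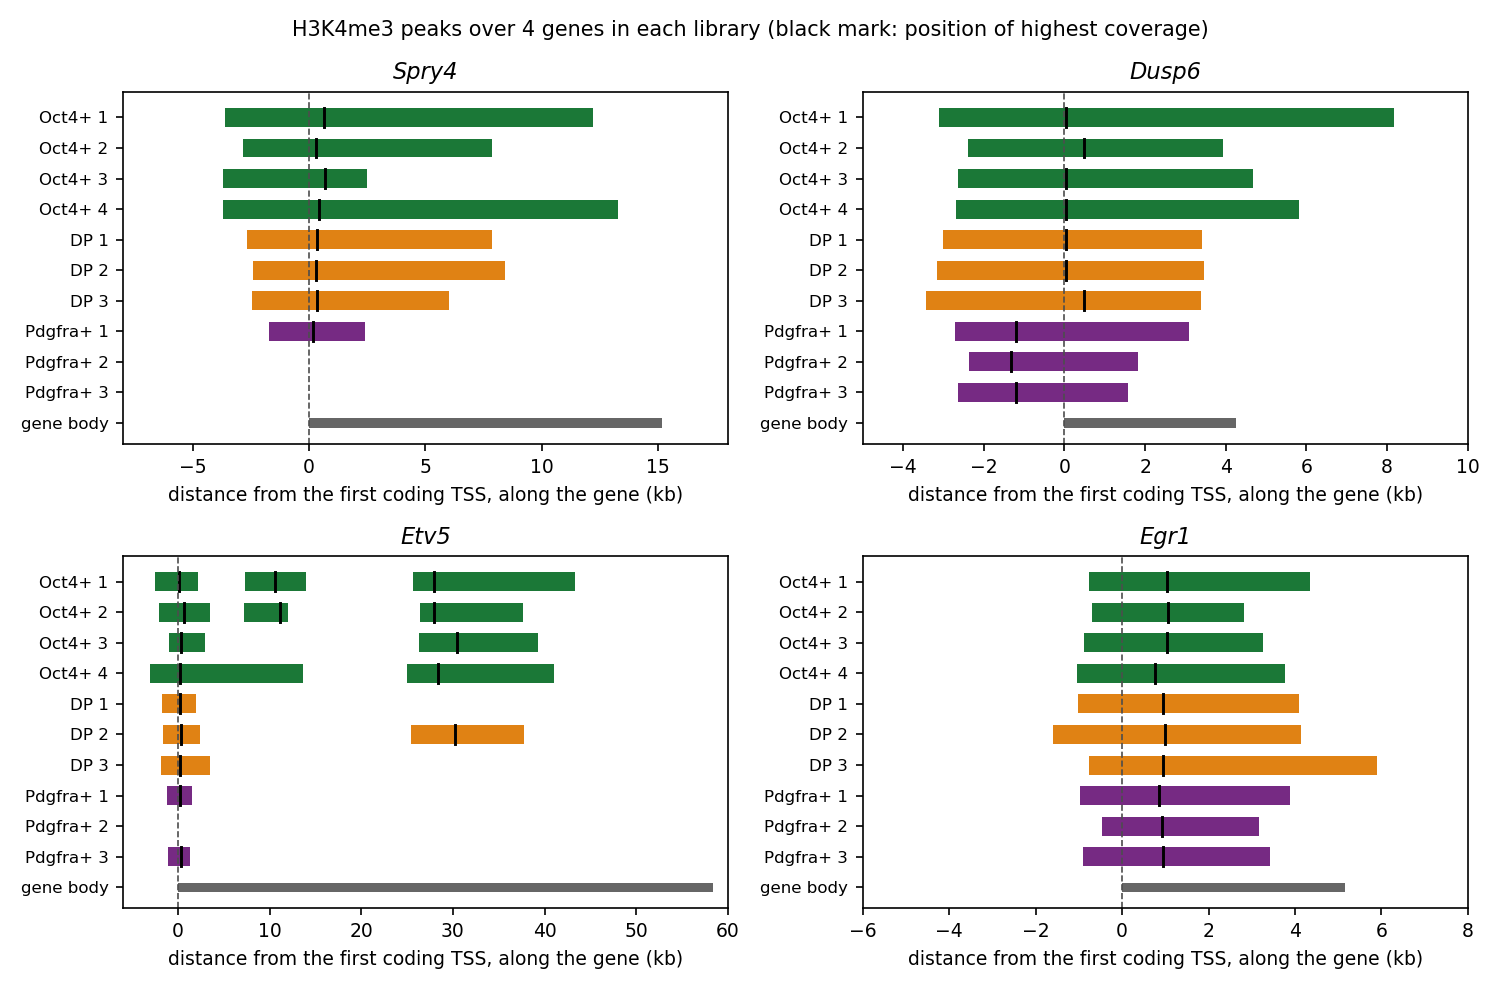
Extent of each H3K4me3 peak over *Spry4*, *Dusp6*, *Etv5* and *Egr1* in the 10 libraries, against the distance from the first coding TSS along the gene (kb), with the position of highest coverage marked in black and the gene body in grey. The *Spry4* peak was called in 1 Pdgfra+ library, the *Dusp6* position of highest coverage lay upstream of the TSS in Pdgfra+ nEnd, and the *Etv5* domain inside the gene was called in the 4 Oct4+ libraries and DP replicate 2.

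In peak width in bp, 5 genes were wider in every Oct4+ than in every Pdgfra+ library (*Spry4*, *Spred2*, *Dusp6*, *Etv4* and *Etv5*; 4.65% of all genes tested) and 0 were narrower (3.52%). DP nEnd was wider than Pdgfra+ nEnd for *Spry4*, *Dusp6*, *Etv4*, *Etv5* and *Egr1*, 5 of 10 beside 12.2% of all genes, and narrower for 0 (0.0086%). A library with no peak was given width 0, as were Pdgfra+ replicates 2 and 3 for *Spry4* and *Etv4* and replicate 2 for *Etv5*. The *Etv4* peak spanned 2505 bp in Oct4+ replicate 3 and 2485 bp in Pdgfra+ replicate 1, the only Pdgfra+ library that had it. Widths in bp also carry the differences in median peak width between libraries. As a percentile of the widths in its own library, *Dusp6* stood at 92.7 to 97.4 in Oct4+, 87.7 to 94.8 in DP and 84.6 to 96.3 in Pdgfra+ nEnd, so Pdgfra+ nEnd overlapped both. *Egr1* likewise overlapped, at 75.4 to 94.2 in DP and 75.2 to 92.7 in Pdgfra+ nEnd. Between Oct4+ and DP nEnd only *Etv5* was wider (0.851% of all genes), by the domain inside the gene, and only *Egr1* was narrower (15.2%). The *Dusp6* peak spanned 11293, 6301, 7322 and 8523 bp in Oct4+ nEnd, 6405, 6615 and 6815 bp in the DP libraries, and 5815, 4189 and 4221 bp in the Pdgfra+ libraries. The *Egr1* peak spanned 5116, 3503, 4138 and 4810 bp in Oct4+ nEnd, 5117, 5740 and 6651 bp in the DP libraries, and 4852, 3630 and 4328 bp in the Pdgfra+ libraries. Peaks were narrower throughout Pdgfra+ replicate 2, the library with a median width of 2204.5 bp. Without it, 5 genes were wider in Oct4+ and 5 in DP than in Pdgfra+ nEnd, the same genes as with it, beside 4.65% and 12.3% of all genes, while the share of all genes narrower in Oct4+ nEnd rose to 13.2%. Without Pdgfra+ replicate 1, the library with the most peaks, 8 genes were wider in Oct4+ and 10 in DP nEnd, but so were 14.8% and 51.1% of all genes.

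**Figure D4:**
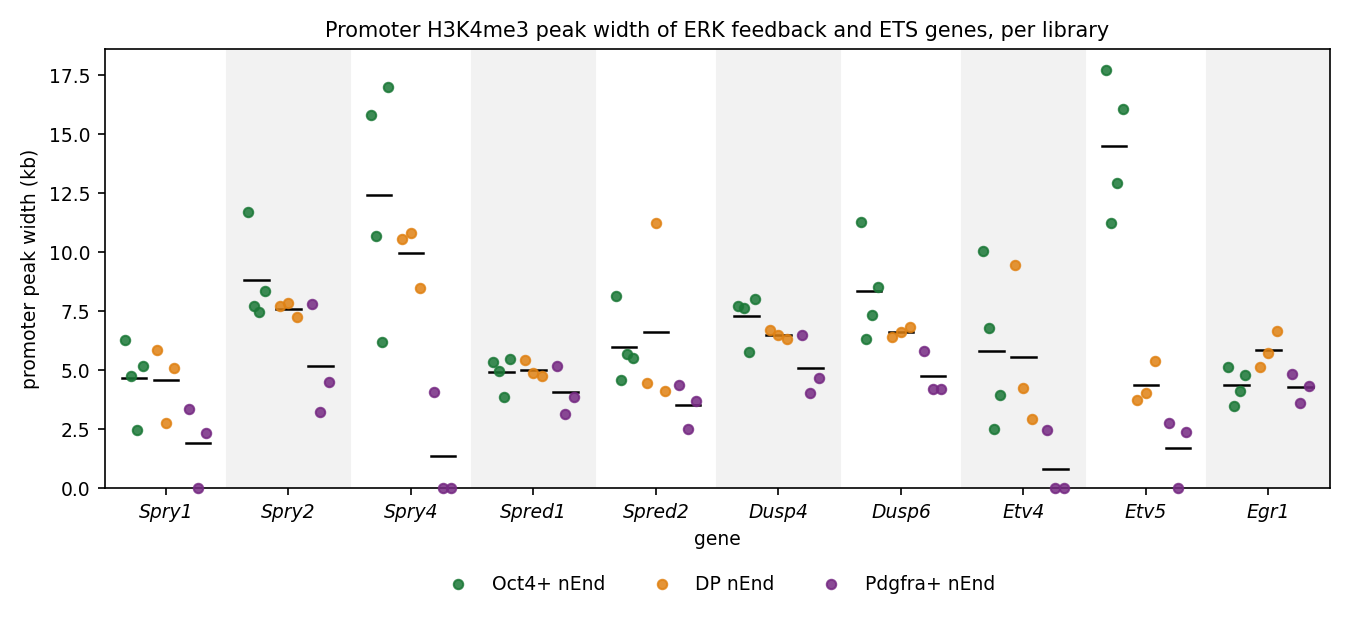
Width of the promoter H3K4me3 peak in kb (vertical axis, 0 where no peak was called) for the 10 genes, with 1 point per library and a black bar at the mean of each population. The widest peaks were those of *Spry4* and *Etv5* in Oct4+ nEnd, up to 16981 and 17709 bp, and for *Etv5* these are the domain inside the gene.

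Ranked by the highest coverage within the peak, which unlike the total is not a sum over its width, fewer genes were apart between DP and Pdgfra+ nEnd. *Spry4*, *Spred2*, *Dusp4* and *Etv4* were higher in DP nEnd (2.2% of all genes) and 0 were lower (2.91%). *Spry4*, *Spred2* and *Dusp6* were higher in Oct4+ than in DP nEnd (4.06%), and *Egr1* was lower (16.1%). *Spry4*, *Spred2*, *Dusp6* and *Etv4* were higher in Oct4+ than in Pdgfra+ nEnd (3.74%), and *Egr1* was again lower (11.7%). *Spry4* stood at 76.3, 73.7, 60.7 and 76.7 in Oct4+ nEnd, 13.1, 22.9 and 25.5 in the DP libraries, and 7.63 in Pdgfra+ replicate 1. *Dusp6* stood at 93.0, 89.4, 89.1 and 82.4 in Oct4+ nEnd, 43.5, 39.9 and 32.2 in DP nEnd, and 36.0, 1.81 and 17.2 in the Pdgfra+ libraries. In DP nEnd these were broad peaks of modest height, whose rank by total signal exceeded their rank by highest coverage. The domain inside *Etv5* showed the same in Oct4+ nEnd, and by this measure the *Etv5* peak with the highest total signal overlapped in every pair.

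Of the 10 genes, 6 had an entry in the RefSeq promoter list, and *Spry4*, *Dusp4*, *Etv4* and *Egr1* did not. Of the 7 promoters of these 6 genes (*Etv5* has 2), 0 held the ETS site CCGGAAG, which contains GGAA, on either strand in the 250 bases before the TSS, a site found in 6.91% of all promoters listed. The shorter core GGAA was in 6 of the 7, from 1 copy in *Spry1* to 7 in *Spred2*, and in 93.4% of all promoters. The more upstream of the 2 *Etv5* windows held 0 copies of GGAA, 3 of the GC box GGGCGG (in 32.7% of all promoters) and 3 of the CCAAT box CCAAT (33.8%) in the 250 bases before its RefSeq TSS. The 101 bases of it printed above, which precede the first GENCODE TSS, held 1 GC box and 1 CCAAT box. The ratio of observed to expected CpG was 0.613 in *Spred2* and 0.780 to 1.001 in the other 6. A match, or its absence, describes letters in this window only.

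Of 20 genes from receptor adaptors to ERK (such as *Frs2*, *Gab1*, *Sos2* and the kinases), all 20 were tested, 0 were higher in every Oct4+ than in every DP library (4.21% of all genes) and 6 were lower (23.3%), and against Pdgfra+ nEnd 0 were higher (4.62%) and 7 lower (18.8%). Without Oct4+ replicate 3 these counts were the same, and without Pdgfra+ replicate 2 the genes lower than in Pdgfra+ nEnd were 9 (30.4% of all genes). *Gab1*, an adaptor between receptors and RAS, was marked in 2 of 4 Oct4+ libraries and had a mean percentile of 26.5 ± 30.8 (SD, n = 4) there, 78.7 ± 4.83 (SD, n = 3) in DP and 87.0 ± 1.79 (SD, n = 3) in Pdgfra+ nEnd. *Frs2*, the docking protein of FGF receptors, stood at 29.1 ± 32.1 (SD, n = 4), 87.2 ± 1.85 (SD, n = 3) and 85.6 ± 10.6 (SD, n = 3) in the same order. Between DP and Pdgfra+ nEnd 0 of the 20 were higher and 2, *Gab1* and *Map2k2*, were lower (2.68% and 4.64% of all genes), and *Sos2* joined the lower ones without Pdgfra+ replicate 2 (14.8%). The median difference over the list was -11.6 percentile points for Oct4+ minus DP nEnd, where the median over all genes tested was -6.83, and without Oct4+ replicate 3 it was -5.45 beside -2.72.

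Of 17 other negative regulators, 15 were tested. *Il17rd*, a membrane inhibitor of FGF signalling, was the 1 that lay with the Sprouty genes: its mean percentile was 73.9 ± 17.7 (SD, n = 4) in Oct4+, 59.1 ± 4.56 (SD, n = 3) in DP and 34.7 ± 13.4 (SD, n = 3) in Pdgfra+ nEnd, and both Oct4+ and DP libraries lay above the Pdgfra+ libraries (4.62% and 2.68% of all genes). The other calls were mostly in the opposite direction. Between Oct4+ and DP nEnd 0 were higher and 10 lower in Oct4+ nEnd (4.21% and 23.3% of all genes), and between Oct4+ and Pdgfra+ nEnd 7 were lower (18.8%). Without Oct4+ replicate 3 the same numbers were lower, and *Il17rd* and *Cbl*, the latter named after its values were seen, were higher than in both other populations (8.5% of all genes against DP and 8.26% against Pdgfra+ nEnd). Without Pdgfra+ replicate 2, 10 were lower in Oct4+ than in Pdgfra+ nEnd (30.4% of all genes). The phosphatase genes *Dusp10* and *Dusp9* were among the lower ones, with means of 14.8 ± 18.1 and 8.43 ± 9.92 (SD, n = 4) in Oct4+ nEnd, 75.7 ± 5.58 and 52.8 ± 1.002 (SD, n = 3) in the DP libraries, and 78.9 ± 3.57 and 57.7 ± 26.4 (SD, n = 3) in the Pdgfra+ libraries. DP nEnd lay below Pdgfra+ nEnd for *Nf1* and *Lrig1* (4.64% of all genes), and for 6 genes without Pdgfra+ replicate 2 (14.8%). The median difference over the list was -27.0 percentile points for Oct4+ minus DP nEnd, and -19.0 without Oct4+ replicate 3.

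Of 18 other ETS factors 14 were tested, and 0 were higher and 8 lower in Oct4+ than in DP nEnd (4.21% and 23.3% of all genes), with 7 lower than in Pdgfra+ nEnd (18.8%). Without Oct4+ replicate 3 the same numbers were lower and *Elk3*, named after its values were seen, was higher than in both other populations (8.5% and 8.26% of all genes), and without Pdgfra+ replicate 2, 8 were lower than in Pdgfra+ nEnd (30.4%). *Elf3*, an epithelial ETS factor, was marked in 2 of 4 Oct4+ libraries and had a mean percentile of 90.4 ± 0.651 (SD, n = 3) in DP and 76.2 ± 16.3 (SD, n = 3) in Pdgfra+ nEnd. It was also the 1 factor of the list higher in DP than in Pdgfra+ nEnd (2.68% of all genes), while *Etv3* and *Ets2* were lower (4.64%), and *Elk4* joined these without Pdgfra+ replicate 2 (14.8%). Of 16 other immediate-early genes 15 were tested, of which 11 were lower in Oct4+ than in DP nEnd (23.3% of all genes) and 9 lower than in Pdgfra+ nEnd (18.8%), as *Egr1* was. These numbers were the same without Oct4+ replicate 3, and without Pdgfra+ replicate 2, 10 were lower than in Pdgfra+ nEnd (30.4%). *Fos* was marked in 1 of 4 Oct4+ libraries and in every other library, at 64.7 ± 3.99 (SD, n = 3) in DP and 70.8 ± 9.49 (SD, n = 3) in Pdgfra+ nEnd. *Atf3* was marked in 0 of 4 Oct4+ libraries and ranked at 76.9 ± 7.99 (SD, n = 3) in DP and 82.4 ± 7.37 (SD, n = 3) in Pdgfra+ nEnd. *Ier2* was the exception, higher in Oct4+ nEnd at 99.7 ± 0.134 (SD, n = 4) than in DP nEnd at 99.3 ± 0.135 (SD, n = 3) and Pdgfra+ nEnd at 93.7 ± 6.65 (SD, n = 3), beside 4.21% and 4.62% of all genes. Between DP and Pdgfra+ nEnd *Ier2* was higher (2.68% of all genes), *Ier3* and *Srf* were lower (4.64%), and 5 were lower without Pdgfra+ replicate 2 (14.8%). The median differences for Oct4+ minus DP nEnd were -18.2 over the ETS list and -41.5 over the immediate-early list, and -14.6 and -30.7 without Oct4+ replicate 3.

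Over the 10 libraries, the genes nearest to *Etv5* in percentile were *Pml*, *Zfp532* and *Ssr2*, at Euclidean distances of 16.2, 18.5 and 19.8 percentile points, with the domain inside the gene as the *Etv5* peak in Oct4+ nEnd. No other protein-coding gene shared a promoter peak with a member. The *Spry1* peak overlapped the promoters of the unclassified transcripts Gm42922 in each of the 9 libraries that had it and Gm43820 in 5 of them, and the *Spry4* peak overlapped those of the small RNAs Gm27369 and Gm27804 in 3 Oct4+ and 2 DP libraries. The *Dusp6* peak also reached the promoter of the lincRNA Gm34921 in 1 Oct4+ library.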

How the data were processed

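H3K4me3 CUT&Tag was analysed in 10 libraries. Per the study's methods, BEDtools gave the coverage, SEACR called peaks in its stringent mode with IgG as control, and DiffBind built the consensus lists. The submitters' processing notes name the build mm10, bcl2fastq 2.19.1, SAMtools 1.12 and bedtools 2.26.0. The deposited signal values are each peak's total and highest coverage, which the authors did not scale between libraries. Only positions were used from the consensus lists. Depth is unknown, so no interval was computed.

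Samples were grouped by the sort in their labels. TSS came from GENCODE M21, on the same build, and promoter sequences from RefSeq (GRCm38.p6). Of several promoter peaks of a gene, the one with the highest total signal was used. An exact two-sided permutation test of mean percentiles or widths was run per gene across all 11632 genes, with Benjamini-Hochberg adjustment, and a gene was called where the libraries of 2 populations did not overlap. The test and calls were tested on simulated data. The members and lists were chosen with earlier results of these data known. From each pathway list at most 3 genes per pair and direction, those with the largest difference, could be named, and for the 2 members with the widest range of means the 3 nearest genes. Those of *Spry4* are not reported here. Alternatives were a promoter of 2500 bp to either side, 50% of the window covered, equal numbers of peaks (3477), coding TSS only, rank by highest coverage or among all genes, each library left out (for the pathway lists, added after seeing the data, the 2 that stand apart), and pairing by replicate number. Python 3.11.15, numpy 2.4.6, pandas 2.3.3 and scipy 1.17.1 were used.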

Additional observations from a re-analysis of the deposited data

Results flagged for a closer look

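In 3 of the 30 groups of 4 Oct4+ libraries (10 genes by 3 measures), 1 library stood further from the others than Dixon's 95% critical value allows, and chance alone gives some such groups. The *Spry4* percentile by total signal was 84.4 in replicate 3, with the other libraries at 96.4 to 98.4. The *Spred2* percentile by total signal was 94.8 in replicate 2, with the others at 92.0 to 92.4. The *Dusp4* peak was 5790 bp wide in replicate 3, with the others at 7640 to 8000 bp. Replicate 3 was the library with the fewest peaks, and its part in these values was not tested.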

How the results depend on the processing

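Of the counts of genes recomputed under each alternative, 116 stayed within 1.5 times the reported count and 12 did not. With equal numbers of peaks per library, the genes apart in percentile were 7 in place of 4 for Oct4+ against DP nEnd and 10 in place of 6 for Oct4+ against Pdgfra+ nEnd, while the share of all genes higher in Oct4+ nEnd rose to 16% and 18.1%. Those apart in width were 4 in place of 2 for Oct4+ against DP nEnd (5.2% of all genes wider and 15.4% narrower) and 3 in place of 5 for DP against Pdgfra+ nEnd (12% wider), and Pdgfra+ replicate 1 marked 6 genes in place of 10. Ranking among all protein-coding genes gave 10 for Oct4+ against Pdgfra+ nEnd (11.8% of all genes higher), and ranking by highest coverage gave 4 in place of 9 for DP against Pdgfra+ nEnd. With coding TSS only, 1 gene was apart in width between Oct4+ and DP nEnd, since the domain inside *Etv5* was then not counted. For *Etv5* the difference between Oct4+ and DP nEnd turned to -0.345 percentile points by highest coverage, and no other called difference of a single gene changed sign. In 14 other combinations of gene, comparison and alternative a separation was lost with no change of sign. Leaving out each library in turn gave 4 to 5, 6 to 9 and 9 to 10 genes apart in percentile for Oct4+ against DP, Oct4+ against Pdgfra+ and DP against Pdgfra+ nEnd, beside 4.26% to 8.5%, 4.64% to 8.26% and 2.78% to 23.1% of all genes higher in the first, and 2 to 3, 5 to 8 and 5 to 10 in width, beside 0.868% to 3.54%, 4.65% to 14.8% and 12.3% to 51.1% wider. The 8 and the 10 in width came without Pdgfra+ replicate 1. Without both Oct4+ replicate 3 and Pdgfra+ replicate 2, an alternative chosen after seeing the data, 9 genes were apart in percentile and 7 in width between Oct4+ and Pdgfra+ nEnd, with 8.34% of all genes higher and 30.4% lower, and 10.8% wider and 13.2% narrower. Except where stated, the causes were not tested.

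Pairing by replicate number, as a replicate block in which all 3 paired differences share a sign, gave 4, 9 and 10 genes in percentile for the same 3 pairs of populations, beside 6.11%, 7.81% and 6.25% of all genes higher and 32.1%, 27.0% and 9.37% lower in the first of each pair, and in width 8 in place of 5 for Oct4+ against Pdgfra+ nEnd and 9 in place of 5 for DP against Pdgfra+ nEnd, where the share of all genes wider rose to 12.7% and 27.4%. Deviations of same-numbered libraries correlated at -0.203 to 0.209, and those of differently numbered ones reached -0.382 and 0.347. These values do not settle whether same-numbered libraries shared a culture or sort.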
